A study of Mus musculus with 9 samples.

Results

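A set of 10 genes of lipoprotein assembly, lipoprotein processing and cholesterol efflux (Apob, Mttp, Tm6sf2, Lpcat3, Apoa1, Apoe, Lipc, Scarb1, Nr1h2 and Nr1h3) was followed across 9 bulk RNA-seq libraries of AML12 cells. They were chosen by name and found by Ensembl identifier, as 10 of the 21959 genes in the deposited tables. AML12 is a single mouse hepatocyte line, set up from an animal with a transgene for TGF-alpha, a growth factor. Free fatty acids were present in all groups, and no group without free fatty acids was analysed here. The 3 libraries of Veh received phosphate-buffered saline. The 3 libraries of OCY-EV+ANTA-NC received extracellular vesicles of aged osteocytes at 2 µg/ml, after these vesicles had been held for 30 min with antagomir-NC, a control oligonucleotide. The 3 libraries of OCY-EV+ANTA received the same vesicles at 2 µg/ml after 30 min with antagomir-483-5p, an oligonucleotide made to block the microRNA miR-483-5p. How the vesicles were cleaned after this incubation is given by the labels both as ultracentrifugation and as ultrafiltration. There was no group with vesicles and no antagomir, so the effect of vesicles cannot be told apart from that of the control antagomir. Separate cultures are not stated for the libraries within a group, so each p-value sets differences against a spread between libraries that may be technical only.

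Hepatocytes export triglyceride as very low density lipoprotein, in which a molecule of apolipoprotein B is loaded with lipid in the endoplasmic reticulum. Cholesterol returns to the liver through high density lipoprotein (HDL), whose main protein, apolipoprotein A-I, takes up cholesterol from the transporter ABCA1, and which is remodelled by lipases and emptied at the liver by a scavenger receptor. The liver X receptors (LXR) are nuclear receptors for oxysterols that pair with retinoid X receptors and switch on genes of this efflux route.

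The microRNA that the antagomir was made against is shown first, because it was the intended target in OCY-EV+ANTA and not in OCY-EV+ANTA-NC. Its mature sequence (RefSeq, GRCm38.p6, chr7:142654968-142654989, minus strand, 22 bases) is printed 5′ to 3′, with the seed at bases 2 to 8 in capitals.
mmu-miR-483-5p: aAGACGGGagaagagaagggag
A site for this seed of 7 letters, CCCGTCT on the transcript, was searched for in the longest coding transcript of each gene in GENCODE M21. None of the 10 genes held it in the 3′ untranslated region, the coding sequence or the 5′ untranslated region. Among the 11518 tested genes with a coding transcript, 374 (3.25%) held it in the 3′ untranslated region. A match of letters is a description and not a site in use, and the levels of the microRNA itself are not analysed here.

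The promoters of Apoa1 and Lipc are shown because these were the genes of the 10 that passed the test of the antagomir. RefSeq sequences of 300 bases (250 before to 50 after a start of transcription, GRCm38.p6) matched 8 of the 10 genes with 12 promoters, some genes having more than 1 start. The core motif AGGTCA, which is not particular to LXR, was searched for on both strands. Copies are in capitals (TGACCT where the copy lies on the other strand). The first sequence is chr9:46228380-46228679 on the plus strand, and the others are the promoters of the 2 Lipc starts on the minus strand, chr9:70952172-70952471 at the annotated end of the gene and chr9:70934759-70935058 at an internal start.
Apoa1: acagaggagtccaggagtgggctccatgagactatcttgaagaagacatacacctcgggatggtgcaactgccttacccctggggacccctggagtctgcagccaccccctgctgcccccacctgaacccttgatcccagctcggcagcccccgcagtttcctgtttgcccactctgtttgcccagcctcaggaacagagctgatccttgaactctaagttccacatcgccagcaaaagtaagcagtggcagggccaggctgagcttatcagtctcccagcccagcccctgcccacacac
Lipc, start at the gene end: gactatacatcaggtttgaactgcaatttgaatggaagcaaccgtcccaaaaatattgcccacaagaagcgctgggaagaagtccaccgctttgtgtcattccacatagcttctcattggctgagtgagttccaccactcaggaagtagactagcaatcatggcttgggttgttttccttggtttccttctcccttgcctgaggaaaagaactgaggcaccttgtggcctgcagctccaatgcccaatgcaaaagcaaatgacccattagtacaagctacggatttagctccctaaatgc
Lipc, internal start: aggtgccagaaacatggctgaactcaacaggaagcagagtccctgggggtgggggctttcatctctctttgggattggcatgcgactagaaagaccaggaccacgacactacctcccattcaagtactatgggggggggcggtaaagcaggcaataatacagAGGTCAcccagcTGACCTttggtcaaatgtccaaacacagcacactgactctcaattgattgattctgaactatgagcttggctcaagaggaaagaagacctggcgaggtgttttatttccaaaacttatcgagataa
The promoter of the internal Lipc start held 2 copies of the motif, at bases -88 and -76 from the start, on opposite strands. As a pair on opposite strands, these copies are not the direct repeat described below. The internal start had the 1 promoter of the 12 with this motif, against 16.3% of all 32851 promoters of this length. Of these 32851, 1.81% held 2 or more. The search for this single motif was chosen after the sequences had been seen. The direct repeat bound by LXR with its partner (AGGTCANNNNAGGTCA, where the 4 letters N are free, with up to 3 mismatches in the 12 fixed letters, both strands) was met in the same promoter and in none of the other 11, against 21.9% of all promoters. Both of its matches there had 3 mismatches, began at bases -79 and -76 and overlapped the copy at -76. The Lipc start at the gene end, chr9:70952221, had no match, and the files do not say which start the counted reads came from.

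Total counts ran from 17298814 to 21737643 per library, and all 10 genes were listed in every library. Levels are given as counts, as CPM (counts scaled by the library total and by TMM factors of 0.987 to 1.015) or, between genes, as the deposited FPKM (the count divided by the library total and by gene length). All 10 genes passed the filter on low counts, and 5 of them were thinly counted. Apoa1 and Nr1h3 reached at most 118 and 117 counts in a library, Apoe 44, Tm6sf2 28 and Lipc 26. A floor of 3 counts equals 0.138 to 0.173 CPM, and covers counting error only. The first principal component (22.6% of the variance) set the OCY-EV+ANTA libraries apart, and the second (17.6%) set apart the library numbered 1 of each group. Of the hepatocyte markers, Hnf4a was present at 49.0 to 66.1 CPM and Alb at 1.73 to 7.21 CPM, while Serpina1a, Cyp3a11 and Apoa2 had no count and Cyp2e1, Tat and Fgb at most 1. The cholangiocyte markers Krt19 (2320 to 2870 CPM) and Krt7 (1100 to 1220 CPM) were far above these. Of the other cholangiocyte markers, Epcam was at 0 and Cftr had at most 2 counts. The 7 markers summed to 3960 to 4030 CPM in Veh, 3680 to 3850 in OCY-EV+ANTA-NC and 3970 to 4290 in OCY-EV+ANTA. This sum, mostly Krt19 and Krt7, was lower in OCY-EV+ANTA-NC than in both other groups without overlap, while Veh and OCY-EV+ANTA overlapped. The part of this sum in the results below was not tested. The sum of the 9 hepatocyte markers in the files overlapped between all groups (63.7 to 66.9, 65.3 to 73.9 and 54.4 to 67.0 CPM), as did the sums for intestinal epithelium (19.6 to 24.6 CPM over all libraries) and endothelial cells (1.23 to 2.54). The 7 macrophage markers, mostly Cd14 and Cd68 with Clec4f at 0, summed to 34.4 to 36.0 CPM in Veh, 33.6 to 41.0 in OCY-EV+ANTA-NC and 36.4 to 42.2 in OCY-EV+ANTA. OCY-EV+ANTA was thus narrowly above Veh. The 6 stellate cell markers, with Lrat at 0, summed to 4.38 to 4.72, 3.42 to 4.65 and 3.51 to 4.37 CPM in the same order. There, OCY-EV+ANTA and Veh were apart by less than the floor of 3 counts. Among all tested genes, 25% did not overlap between OCY-EV+ANTA and Veh. The part of these marker sums in the differences from Veh was not tested. The osteocyte markers summed to at most 0.488 CPM, with Sost, Dmp1 and Pdpn at 0 in every library.

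**Figure D1:**
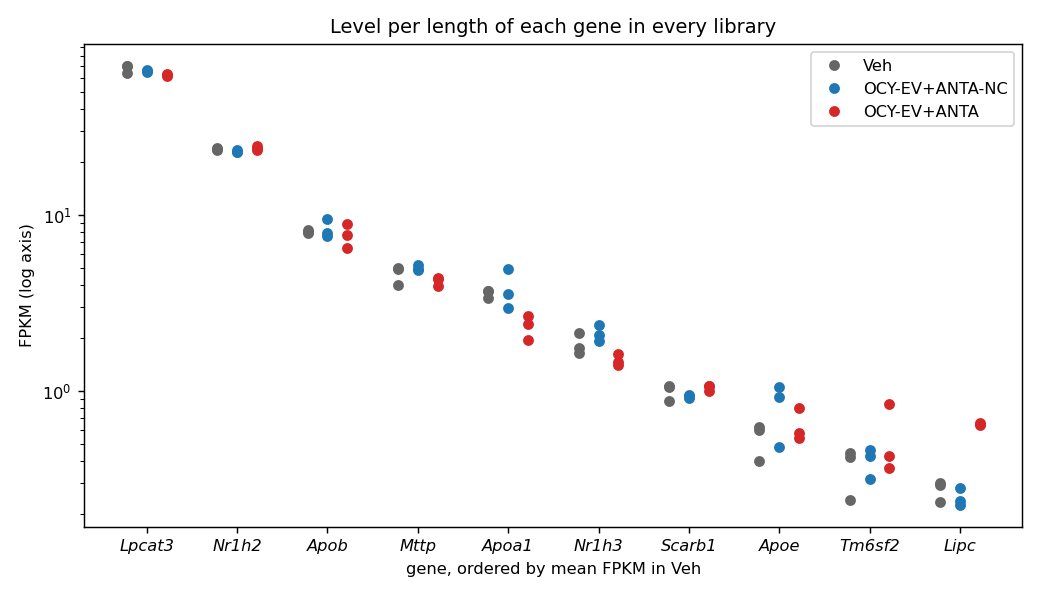
FPKM (log axis) of each gene in every library, genes ordered by their mean in Veh; each point is 1 library, coloured by group. Lpcat3 lies highest at 61.2 to 70.1 FPKM, and the Lipc points of OCY-EV+ANTA (0.645 to 0.662) lie above its points in the other groups (0.226 to 0.3).

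Per gene length, Lpcat3 was the most abundant of the 10, at 68.0 FPKM on average in Veh. Nr1h2 followed at 23.6, Apob at 8.0, Mttp at 4.65, Apoa1 at 3.58, Nr1h3 at 1.85 and Scarb1 at 1.0 FPKM, and each of these steps was wider than the spread of the libraries. The length used covers all exons of a gene, 8500 bases for Scarb1 and 2515 for Nr1h3. Their longest coding transcripts hold 2521 and 1955 bases, so the step between them depends on the length used. The spread of the libraries does not cover this choice. Apoe (0.543), Tm6sf2 (0.369) and Lipc (0.276 FPKM) came last, and neighbours among these overlapped. The first 7 places were the same in the other groups, although Mttp and Apoa1 overlapped in OCY-EV+ANTA-NC. Scarb1 and Apoe overlapped there too. In OCY-EV+ANTA, Lipc stood at 0.652 FPKM, level with Apoe (0.639) and Tm6sf2 (0.544) within their spread.

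**Figure D2:**
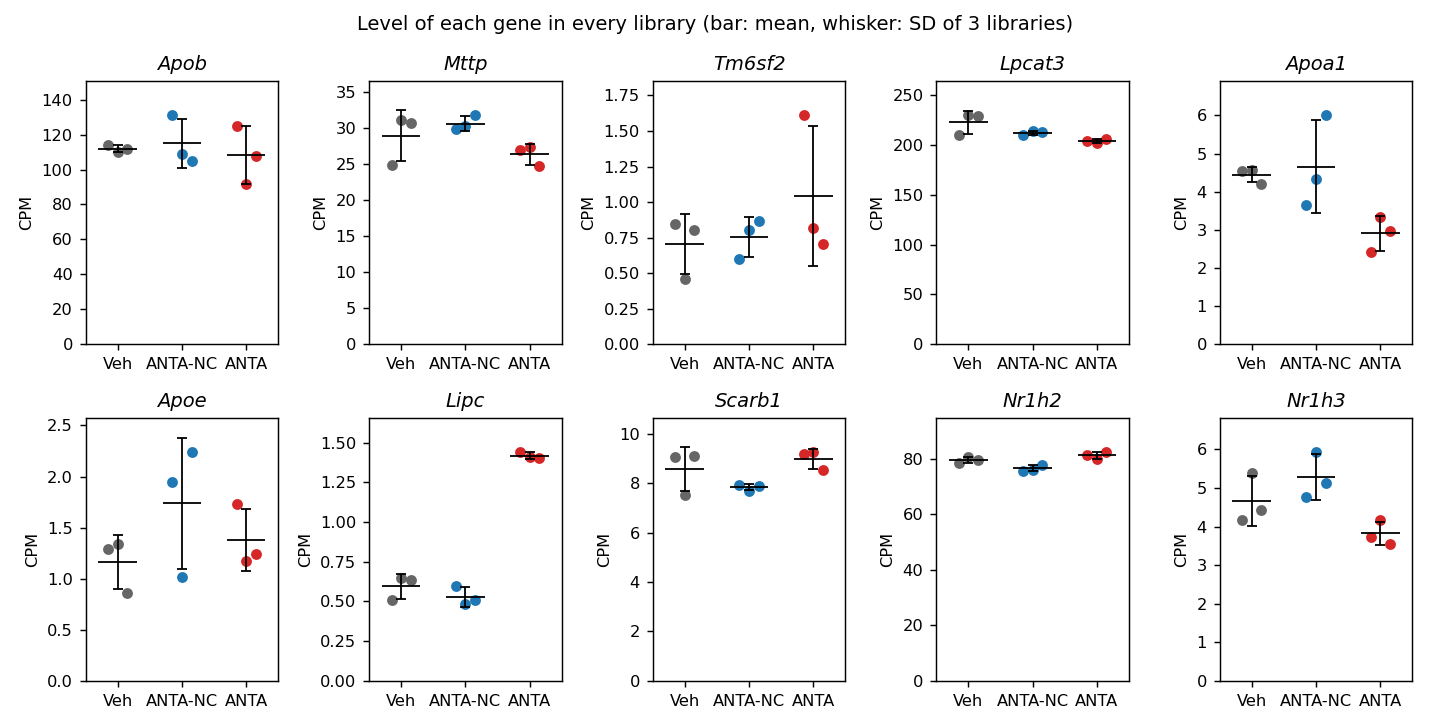
CPM of the 10 genes in each of the 9 libraries (points), with the mean (bar) and SD (whisker) of the 3 libraries of a group; ANTA-NC and ANTA stand for OCY-EV+ANTA-NC and OCY-EV+ANTA. The 3 Lipc points of OCY-EV+ANTA (1.4 to 1.44 CPM) lie above all others, and the 3 Apoa1 points of OCY-EV+ANTA (2.42 to 3.34 CPM) lie below all others.

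Comparing OCY-EV+ANTA with OCY-EV+ANTA-NC asked what the antagomir against miR-483-5p changed in vesicle-treated cells. The mRNA of hepatic lipase, Lipc, was higher and that of apolipoprotein A-I, Apoa1, was lower. In bulk samples, fewer cells that express a gene and less of its RNA per cell cannot be told apart. These 2 of the 10 genes passed the test, against 14.7% of all 11562 genes tested (7.59% higher, 7.09% lower). A gene was called at an adjusted p under 0.05 in edgeR's quasi-likelihood test, with Benjamini-Hochberg adjustment over all genes tested. For 7 of the 10 genes the groups had CPM that did not overlap, against 29.9% of all genes, and 5 were at an unadjusted p under 0.05, against 28% of all genes. The median absolute log2 difference was 0.28 for the 10 genes and 0.1 for all genes. Thinly counted genes among the 10 carry more counting error, which can raise their median. The 10 genes were also chosen with earlier results of these data known. The median signed difference was -0.07, against -0.002 for all genes, with 4 genes above 0 and 6 below. Of all calls, 878 were higher and 820 lower, a split that moved to 530 and 1155 when libraries were scaled by their totals alone, and to 392 and 881 with limma on log2(FPKM + 1).

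In OCY-EV+ANTA-NC against Veh, which asked what vesicles with the control antagomir changed, none of the 10 genes was called (0 of 10 by edgeR), against 1.02% of all genes (0.813% higher, 0.208% lower). None was at an unadjusted p under 0.05 (13.5% of all genes were), and DESeq2 called 0 of the 4 genes (Apob, Mttp, Lpcat3 and Nr1h2) for which it gave an adjusted p. Nr1h2 was the 1 gene whose groups did not overlap, against 19.3% of all genes. In OCY-EV+ANTA against Veh, Lipc was the 1 gene of 10 called, against 6.52% of all genes (3.06% higher, 3.46% lower). There, 3 genes had groups that did not overlap (Lpcat3, Apoa1 and Lipc), against 25% of all genes, and the same 3 were at an unadjusted p under 0.05, against 20.8%. These comparisons share libraries in pairs, so they are not independent of each other.

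**Figure D3:**
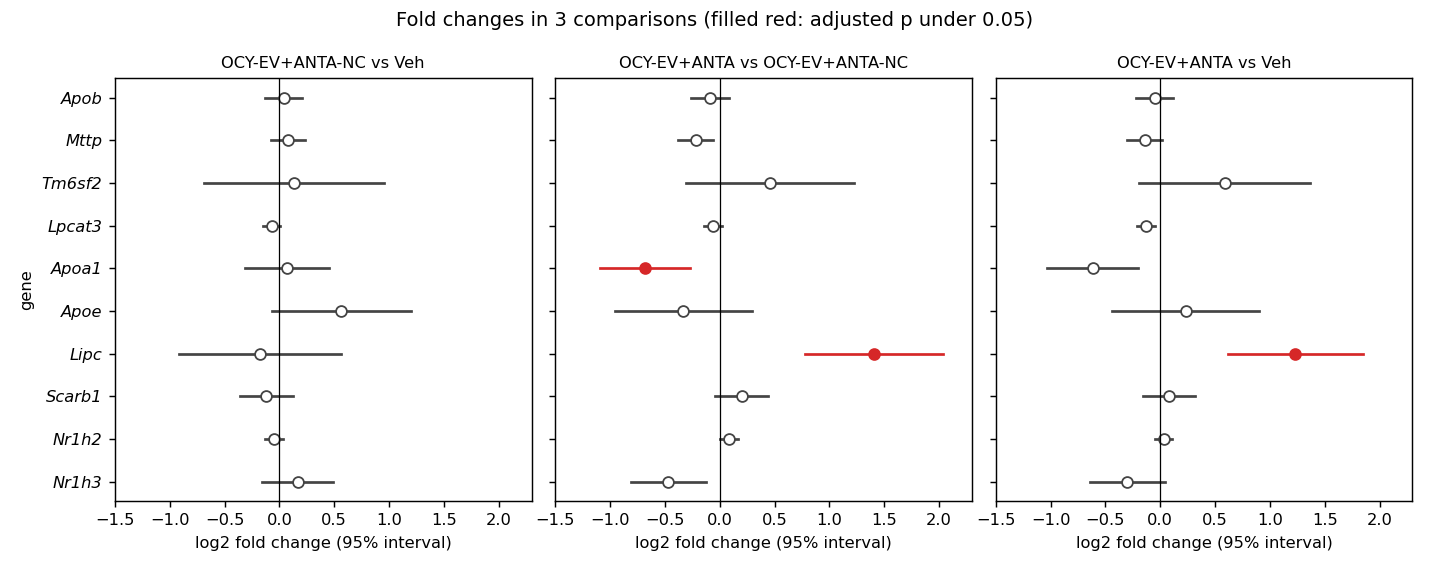
Fitted log2 fold change (point) and its 95% interval (line) for each gene in the 3 comparisons; filled red points passed the test. Lipc is at 1.41 and 1.23 against both other groups, Apoa1 passes only against OCY-EV+ANTA-NC (-0.68), and the intervals of the low-count genes Tm6sf2, Apoe and Lipc are the widest.

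Apob (ENSMUSG00000020609, chr12:7977648-8016835, plus strand, GRCm38) encodes the structural protein of very low density lipoprotein. Its level was 114, 110.0 and 112 CPM in Veh 1, 2 and 3, then 131, 109 and 105 CPM in OCY-EV+ANTA-NC and 125, 91.9 and 108 CPM in OCY-EV+ANTA. Library 1 was the highest in each group, and all groups overlapped. The log2 difference of OCY-EV+ANTA from OCY-EV+ANTA-NC was -0.09 (95% interval -0.26 to 0.08, adjusted p = 0.52 by edgeR), from Veh -0.05 (-0.22 to 0.12), and that of OCY-EV+ANTA-NC from Veh 0.04 (-0.13 to 0.21).

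Mttp (ENSMUSG00000028158, chr3:138089854-138144968, minus strand) encodes the microsomal triglyceride transfer protein, which loads lipid onto apolipoprotein B. It stood at 24.9, 31.2 and 30.8 CPM in the libraries of Veh, at 29.9, 30.3 and 31.8 in OCY-EV+ANTA-NC, and at 27.0, 27.4 and 24.7 in OCY-EV+ANTA. All OCY-EV+ANTA libraries lay below all OCY-EV+ANTA-NC libraries, whereas Veh overlapped both. The difference of OCY-EV+ANTA from OCY-EV+ANTA-NC, -0.22 (SE 0.08, 95% interval -0.38 to -0.06), missed the threshold by edgeR at adjusted p = 0.056. Of its 21 alternative settings, 7 called it, with adjusted p from 0.0143 to 0.191. Differences from Veh were -0.14 for OCY-EV+ANTA (adjusted p = 0.312 by edgeR) and 0.08 for OCY-EV+ANTA-NC (adjusted p = 0.702). Exons of genes on the opposite strand, Gm43691 and Trmt10a, cover 9.5% of its exon bases, and with no stated strand setting such reads cannot be told apart.

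Tm6sf2 (ENSMUSG00000036151, chr8:70072924-70080066, plus strand) encodes a membrane protein of the endoplasmic reticulum that helps to lipidate very low density lipoprotein. It was thinly counted, with 15, 10 and 14 counts in Veh, 11, 15 and 17 in OCY-EV+ANTA-NC and 28, 14 and 13 in OCY-EV+ANTA. Library 1 of OCY-EV+ANTA stood alone above the rest. The difference from OCY-EV+ANTA-NC was 0.46 (SE 0.37, 95% interval -0.31 to 1.22, adjusted p = 0.454 by edgeR), and it turned to -0.14 with the libraries numbered 1 left out of all groups, an alternative chosen after seeing the data. The interval was wide, and without OCY-EV+ANTA 1 alone the difference from OCY-EV+ANTA-NC was 0.0.

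Lpcat3 (ENSMUSG00000004270, chr6:124663027-124704418, plus strand) encodes an acyltransferase that puts polyunsaturated fatty acids into the phospholipids of lipoproteins and membranes, and is a known LXR target. Counts were 3736, 4983 and 3975 in Veh, 3868, 4014 and 4185 in OCY-EV+ANTA-NC and 3552, 3457 and 3816 in OCY-EV+ANTA. After scaling, group means were 223 ± 11, 212 ± 2.3 and 204 ± 1.7 CPM (SD, n = 3 each), and OCY-EV+ANTA lay below both other groups without overlap. The difference from Veh, -0.13 (SE 0.04, 95% interval -0.21 to -0.05), missed the threshold with adjusted p = 0.0505 by edgeR, and 8 of 21 alternative settings called it (adjusted p from 0.00416 to 0.223). From OCY-EV+ANTA-NC it differed by -0.06 (adjusted p = 0.368 by edgeR). Exons of Emg1 on the opposite strand cover 10.2% of its exon bases.

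Apoa1 (ENSMUSG00000032083, chr9:46228580-46230466, plus strand), which encodes the main protein of HDL, had 81, 99 and 73 counts in the libraries of Veh. It had 67, 81 and 118 counts in OCY-EV+ANTA-NC and 42, 57 and 55 in OCY-EV+ANTA. Every OCY-EV+ANTA library was below every library of the other groups, and OCY-EV+ANTA-NC 3 was the highest of all. Mean levels were 4.44 ± 0.20, 4.65 ± 1.2 and 2.91 ± 0.46 CPM (SD, n = 3 each). Against OCY-EV+ANTA-NC the log2 change was -0.68 (SE 0.20, 95% interval -1.09 to -0.27, fold 0.623, adjusted p = 0.0238 by edgeR). Of the 1698 genes called in that comparison, 45 had a lower log2 change.

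The call of Apoa1 was lost when OCY-EV+ANTA-NC 3 was left out (log2 change -0.46, adjusted p = 0.156 by edgeR), when OCY-EV+ANTA 1 was left out (-0.57, adjusted p = 0.0803) and when OCY-EV+ANTA 3 was left out (-0.70, adjusted p = 0.0574). The change from Veh, -0.61 (SE 0.20, 95% interval -1.03 to -0.20), missed the threshold at adjusted p = 0.068 by edgeR. It was called in 6 of 20 alternative settings, with adjusted p from 0.0178 to 0.188. OCY-EV+ANTA-NC differed from Veh by 0.07 (95% interval -0.31 to 0.45). The ratio of Apob to Apoa1 FPKM was 2.22, 2.13 and 2.35 in Veh, 3.2, 2.23 and 1.56 in OCY-EV+ANTA-NC, and 4.58, 2.44 and 3.21 in OCY-EV+ANTA. This ratio of apolipoproteins was higher in OCY-EV+ANTA than in Veh without overlap but overlapped OCY-EV+ANTA-NC.

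The neighbours of Apoa1 in its cluster on chromosome 9 were hardly counted: Apoc3 had 1 to 6 counts per library, Apoa4 at most 2, and Apoa5 3 to 15. Summed over libraries, Apoa5, which raises lipolysis of triglyceride-rich particles, had 29, 26 and 25 counts in Veh, OCY-EV+ANTA-NC and OCY-EV+ANTA, while Apoa1 had 253, 266 and 154. By the Pearson correlation of log2 CPM over the 9 libraries, with 9422 genes of at least 5 CPM on average searched, the patterns nearest to Apoa1 were those of Glis3 (0.956), Bbs10 (0.95) and Snapc1 (0.949). These values span all groups and share depth, and are a description.

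Apoe (ENSMUSG00000002985, chr7:19696109-19699188, minus strand) encodes a ligand that brings remnant particles to their receptors on hepatocytes, and is an abundant mRNA of the liver. Here it had 23, 29 and 15 counts in Veh, 36, 19 and 44 in OCY-EV+ANTA-NC and 30, 20 and 23 in OCY-EV+ANTA. Libraries varied about as much within groups as between them, and all groups overlapped. The differences were 0.56 for OCY-EV+ANTA-NC against Veh (SE 0.30, adjusted p = 0.449 by edgeR), -0.34 for OCY-EV+ANTA against OCY-EV+ANTA-NC (SE 0.30, adjusted p = 0.507) and 0.23 for OCY-EV+ANTA against Veh (adjusted p = 0.739). Its neighbours on chromosome 7, Apoc1, Apoc4 and Apoc2, had at most 4, 2 and 0 counts per library.

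Lipc (ENSMUSG00000032207, chr9:70798128-70952226, minus strand) encodes hepatic lipase, which hydrolyses triglycerides and phospholipids of remnants and HDL. Its counts were 9, 14 and 11 in Veh, 11, 9 and 10 in OCY-EV+ANTA-NC and 25, 24 and 26 in OCY-EV+ANTA. The 3 OCY-EV+ANTA libraries were close to each other and above all 6 others, which overlapped among themselves. At such low counts, counting error alone is wider than this closeness, which therefore does not measure precision. Group means were 0.596 ± 0.078, 0.529 ± 0.061 and 1.42 ± 0.019 CPM (SD, n = 3 each). The log2 change against OCY-EV+ANTA-NC was 1.41 (SE 0.30, 95% interval 0.78 to 2.04, fold 2.66, adjusted p = 0.0035 by edgeR). Only 5 of the 1698 genes called had a higher log2 change. The SE, interval and adjusted p draw on the spread of these same libraries, so the SE may be too small. With no filter on low counts the SE of the Lipc change was 0.39 (adjusted p = 0.00493 by edgeR). With the replicate number in the fit it was 0.35 (adjusted p = 0.00238 by edgeR).

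Without any 1 of the 9 libraries, the Lipc change from OCY-EV+ANTA-NC stayed between 1.35 and 1.5 and was called each time (highest adjusted p = 0.0202 by edgeR). Against Veh the change was 1.23 (SE 0.30, 95% interval 0.62 to 1.85, fold 2.35, adjusted p = 0.0153 by edgeR). That call was lost without Veh 1 (1.13, adjusted p = 0.0666), without Veh 2 (1.3, adjusted p = 0.0566) and without OCY-EV+ANTA 2 (1.24, adjusted p = 0.0516), and with the libraries numbered 1 left out of all groups (1.12, adjusted p = 0.08). OCY-EV+ANTA-NC differed from Veh by -0.18 (95% interval -0.92 to 0.56). All of these values rest on a sum of 34 counts in Veh, 30 in OCY-EV+ANTA-NC and 75 in OCY-EV+ANTA. With a filter of at least 1 CPM on average Lipc was not tested, and DESeq2 gave it no adjusted p (log2 change 1.42, unadjusted p = 0.00178 in its Wald test). The genes nearest to Lipc in pattern were Ppp2r5d (Pearson 0.975 over the 9 libraries), Rarg (0.973) and Cryab (0.973). Their means were 143, 46.7 and 251 CPM in OCY-EV+ANTA against 125, 37.9 and 197 CPM in OCY-EV+ANTA-NC. They were chosen for likeness to Lipc over these same libraries, so their higher means follow from the choice and are a description.

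Scarb1 (ENSMUSG00000037936, chr5:125277087-125341094, minus strand) encodes scavenger receptor class B type 1, which takes cholesteryl ester from HDL into hepatocytes. It had 161, 163 and 158 counts in Veh, 146, 144 and 155 in OCY-EV+ANTA-NC and 160, 158 and 158 in OCY-EV+ANTA. After scaling, OCY-EV+ANTA (8.53 to 9.26 CPM) lay above OCY-EV+ANTA-NC (7.69 to 7.92 CPM) without overlap, and Veh, at 7.53 to 9.11 CPM, overlapped both. The difference of 0.20 (SE 0.12, 95% interval -0.04 to 0.44) did not pass the test (adjusted p = 0.285 by edgeR). OCY-EV+ANTA-NC differed from Veh by -0.12 (95% interval -0.36 to 0.12).

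Nr1h2 (ENSMUSG00000060601, chr7:44549616-44553951, minus strand) encodes LXR beta, which is expressed in most tissues. Its level was 78.4, 80.6 and 79.6 CPM in Veh, 75.8, 76.2 and 77.9 in OCY-EV+ANTA-NC and 81.4, 80.0 and 82.5 in OCY-EV+ANTA. The OCY-EV+ANTA-NC libraries were the lowest and did not overlap either other group, yet the differences were small: -0.05 from Veh (95% interval -0.13 to 0.03, adjusted p = 0.605 by edgeR) and 0.08 for OCY-EV+ANTA against OCY-EV+ANTA-NC (95% interval 0.0 to 0.17, adjusted p = 0.164). Neither passed the test.

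Nr1h3 (ENSMUSG00000002108, chr2:91184061-91202834, minus strand) encodes LXR alpha, the form that is high in liver. It had 74, 117 and 77 counts in Veh, 88, 111 and 101 in OCY-EV+ANTA-NC and 65, 71 and 66 in OCY-EV+ANTA. Scaled levels in OCY-EV+ANTA (3.56 to 4.16 CPM) lay below those in OCY-EV+ANTA-NC (4.77 to 5.93 CPM), and met those in Veh (4.16 to 5.4 CPM). The difference from OCY-EV+ANTA-NC was -0.47 (SE 0.16, 95% interval -0.81 to -0.13) and missed the threshold at adjusted p = 0.0572 by edgeR. Of its 21 alternative settings, 7 called it, with adjusted p from 0.019 to 0.207. Against Veh the difference was -0.30 (adjusted p = 0.321 by edgeR).

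LXR beta mRNA thus outnumbered LXR alpha mRNA per length in every library of this hepatocyte line. The ratio of Nr1h2 to Nr1h3 FPKM was 14.1, 11.2 and 13.4 in Veh, 11.9, 9.63 and 11.4 in OCY-EV+ANTA-NC and 16.3, 14.4 and 17.4 in OCY-EV+ANTA. The OCY-EV+ANTA ratios lay above all others. No test was made of this ratio, which rests on the same counts as the values above.

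Several genes that carry out cholesterol efflux or are classical LXR targets were at or near 0. Abca1, the transporter that hands cholesterol to apolipoprotein A-I, had 0 counts in all 9 libraries, which allows up to 0.138 to 0.173 CPM by the floor of 3 counts. Mylip, a ubiquitin ligase that limits lipoprotein uptake, was also listed at 0 in all 9. No other annotated gene overlaps the exons of either. Abcg1, Abcg5 and Abcg8, further sterol exporters, had at most 1 count per library. Pltp, a phospholipid transfer protein of HDL, had 0 to 7 counts, and Cyp7a1, the first enzyme of bile acid synthesis, 0 to 4. Lcat, which esterifies the cholesterol of HDL, had 3 to 16. Since the counting step of the submitters is known only in part, a 0 here says that no read was counted, not that the mRNA was absent.

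**Figure D4:**
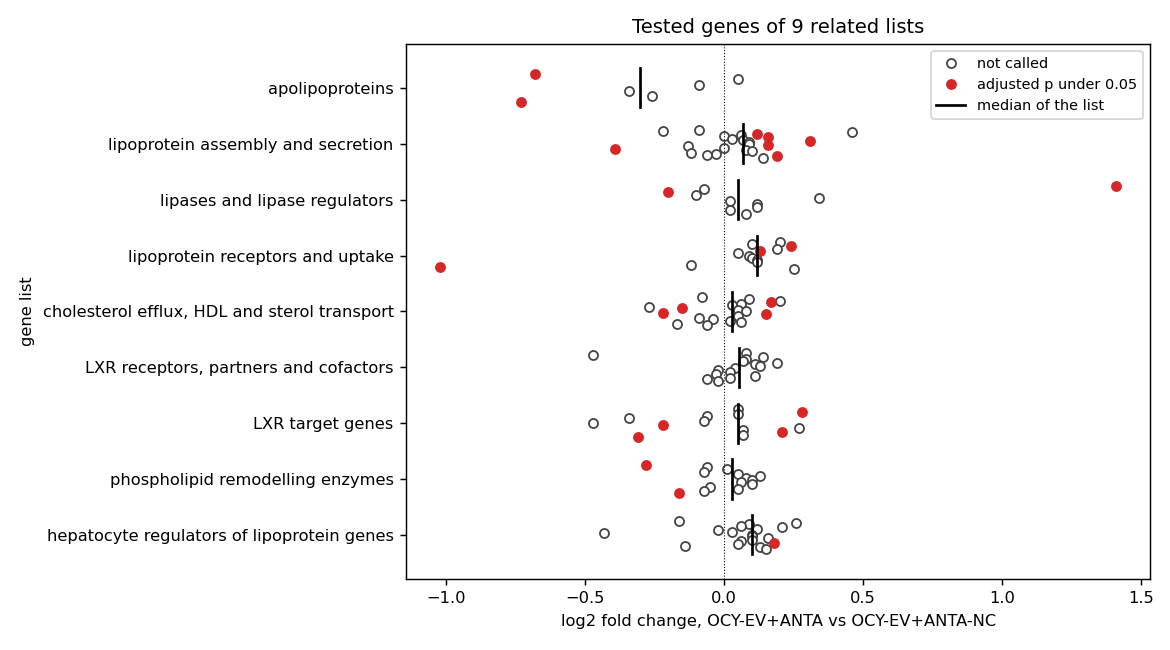
Log2 fold change of OCY-EV+ANTA against OCY-EV+ANTA-NC for the tested genes of 9 gene lists around the 10 genes; filled red points passed the test, black bars are list medians and the dotted line marks 0. Most genes lie close to 0, with Lipc (1.41) far to the right and Cd36 (-1.02), Apon (-0.73) and Apoa1 (-0.68) to the left.

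The wider routes were read from 9 lists written from general knowledge, for which called genes are counted beside the 14.7% of all genes called in OCY-EV+ANTA against OCY-EV+ANTA-NC and the median of -0.002. Of 18 apolipoprotein genes, 6 were tested, 2 fell and 0 rose (median -0.30). Beside Apoa1 this was Apon, an apolipoprotein gene of mouse, at 8.4 ± 1.0 CPM in OCY-EV+ANTA-NC and 5.04 ± 0.33 in OCY-EV+ANTA (SD, n = 3 each, log2 change -0.73, SE 0.13, adjusted p = 0.000829 by edgeR). Apon was also lower than in Veh (-0.93, adjusted p = 0.000159).

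Of 23 tested genes of lipoprotein assembly and secretion, 5 rose and 1 fell (median 0.07). Those that rose included Sec24d, a cargo-binding subunit of COPII vesicles (77.1 ± 4.2 to 95.8 ± 1.9 CPM, log2 change 0.31, adjusted p = 0.000121 by edgeR). P4hb, the smaller subunit of the microsomal triglyceride transfer complex and a disulfide isomerase, rose by 0.12 (adjusted p = 0.00281), and Surf4, a cargo receptor that carries lipoproteins out of the endoplasmic reticulum, by 0.16 (adjusted p = 0.0042). Vmp1, a membrane protein needed for lipoprotein release, fell by 0.39 (364 ± 4.0 to 277 ± 6.0 CPM, adjusted p = 1.47e-07 by edgeR). The microRNA gene Mir21a on the same strand covers 2.4% of Vmp1 exon bases, and reads from it cannot be told apart there. Vmp1 was the 1 gene of all lists called in OCY-EV+ANTA-NC against Veh, where it rose by 0.17 from 323 ± 7.3 CPM (adjusted p = 0.00867 by edgeR). That second call was lost without Veh 3 (adjusted p = 0.0567) and with a GC and length trend removed.

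Among 10 tested lipases and lipase regulators, Lipc rose and Lipa fell (median 0.05). Lipa, the lysosomal acid lipase, went from 145 ± 3.2 to 126 ± 2.9 CPM (SD, n = 3 each, log2 change -0.20, adjusted p = 0.00167 by edgeR). Lpl, the lipase of muscle and fat capillaries, was at 9.38 ± 0.83 and 8.95 ± 1.2 CPM and was not called. Of 13 tested receptor and uptake genes, 2 rose and 1 fell (median 0.12). Cd36, a fatty acid and lipoprotein scavenger receptor, fell by 1.02 on the log2 scale, from 13.8 ± 0.32 to 6.77 ± 0.69 CPM (adjusted p = 2.71e-06 by edgeR). Vldlr, which binds triglyceride-rich lipoproteins, rose by 0.13 (adjusted p = 0.00689 by edgeR), and this call was lost in tests on FPKM.

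Of 19 tested genes of cholesterol efflux, HDL and sterol transport, 2 rose and 2 fell (median 0.03), and each of these 4 calls was lost without at least 1 library. Npc1, which exports cholesterol from lysosomes, rose by 0.17 (adjusted p = 0.012 by edgeR). This call was lost without OCY-EV+ANTA-NC 1 (adjusted p = 0.0665 by edgeR), in tests on FPKM and with the libraries numbered 1 left out. Stard4, a cytosolic sterol carrier, rose by 0.15 (adjusted p = 0.0206 by edgeR). It was lost without OCY-EV+ANTA-NC 3, OCY-EV+ANTA 1 or OCY-EV+ANTA 2, with adjusted p up to 0.121 by edgeR. Tests on FPKM and scaling by library size alone lost it too. Stard3, an endosomal sterol carrier, fell by 0.22 (adjusted p = 0.0142), lost without OCY-EV+ANTA 3 (adjusted p = 0.0536) and with the libraries numbered 1 left out. Nceh1, a cholesteryl ester hydrolase, fell by 0.15 (adjusted p = 0.0441 by edgeR). It was lost without any of 7 libraries, controls included, with adjusted p up to 0.174 by edgeR, and with DESeq2 and several other settings.

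Of the 16 tested LXR receptors, partners and cofactors, none was called (median 0.05). Nr1h3 itself was among the nearest to the threshold (adjusted p = 0.0572 by edgeR). Rxra, the retinoid X receptor that pairs with LXR, was at 47.9 ± 2.5 CPM in OCY-EV+ANTA-NC and 52.9 ± 1.7 in OCY-EV+ANTA (log2 difference 0.14, adjusted p = 0.0811) and was named after its values were seen. Of 13 tested LXR targets, 2 rose and 2 fell (median 0.05). The counts were the same against Veh (median -0.01), where 6.52% of all genes were called. That comparison shares the OCY-EV+ANTA libraries. The desaturases Scd1 (1580 ± 40 to 1910 ± 39 CPM, log2 change 0.28, adjusted p = 1.34e-06 by edgeR) and Scd2 (0.21, adjusted p = 3.3e-06) rose, and as close copies they may share reads. Lbp, a lipopolysaccharide carrier, fell by 0.31 (adjusted p = 2.09e-05), and Arl4c, a small GTPase, by 0.22 (adjusted p = 0.00245). Srebf1, the LXR target that drives fatty acid synthesis, was at 113 ± 3.6 and 117 ± 0.78 CPM and was not called (0.05, adjusted p = 0.501).

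In the list of 14 tested phospholipid enzymes, 2 fell and 0 rose (median 0.03). Lpcat1, an acyltransferase of saturated chains, fell by 0.28 (adjusted p = 0.0214 by edgeR). It was lost without OCY-EV+ANTA-NC 1 or OCY-EV+ANTA 3 (adjusted p up to 0.0917 by edgeR), with DESeq2 and with the libraries numbered 1 left out. Chpt1, which makes phosphatidylcholine, fell by 0.16 (adjusted p = 0.0464 by edgeR). It was lost without any of 7 libraries (adjusted p up to 0.133 by edgeR), and with DESeq2 and several other settings. Of 19 tested hepatocyte regulators of lipoprotein genes, 1 rose and 0 fell (median 0.10). That gene was Srebf2, which drives genes of cholesterol synthesis and uptake (553 ± 15 to 627 ± 9.3 CPM, log2 change 0.18, adjusted p = 0.000347 by edgeR).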

How the data were processed

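Per library, the authors deposited raw read counts per gene and FPKM. HTSeq counting and the build mm10 are named in the submitters' processing notes, whereas aligner, annotation, versions and strand setting are not given in the sources used. The deposited FPKM equalled the count divided by the library total and by 1 length per gene, within 0.001 base. Of the 21959 identifiers, 21851 matched GENCODE M21. The members and lists were chosen with earlier results of these data known.

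Counts were filtered with filterByExpr of edgeR 4.0.16 in R 4.3.3 (smallest count 10, smallest total 15), leaving 11562 genes with 99.96% of the counts of each library, scaled with TMM factors, and fitted with all 9 libraries in 1 quasi-likelihood model without covariates. Adjusted p-values cover all genes tested (Benjamini-Hochberg), and the threshold was 0.05. Intervals are 95%. The fit was also run on counts simulated from its own estimate of spread, with genes of all levels mixed and no shared deviation of libraries. That run cannot speak to low-count genes or to pairing, and no result here rests on it. Named are all 10 genes, up to 4 called genes per list with the smallest adjusted p in OCY-EV+ANTA against OCY-EV+ANTA-NC (otherwise the 2 smallest, not called), list genes called in OCY-EV+ANTA-NC against Veh, and the 3 genes most like each called member; genes listed near 0, cluster neighbours, Lpl, Srebf1, Rxra and differences from Veh were added after their values were seen. Some genes this rule names are not reported here. Alternatives were DESeq2 1.42.0, other size factors, other filters, limma 3.58.1 on log2(FPKM + 1) or log2(FPKM + 0.1), only the 2 groups compared, a replicate block, a GC and length correction, and leaving out each library.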

Additional observations from a re-analysis of the deposited data

How the results depend on the processing

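Over all alternatives, 610 values of the 10 genes were computed: 563 kept their direction and their side of the threshold, 7 lost a call, 29 gained one and 11 changed sign, all 11 of them not called in the reported fit. The cause of each shift was not tested unless named. The count of genes called in OCY-EV+ANTA-NC against Veh (118, 94 higher and 24 lower) was 184 with DESeq2, 335 with no filter on low counts, 48 and 49 with limma on log2(FPKM + 1) and log2(FPKM + 0.1), 180 with only the 2 groups compared and 53 with the GC and length trend removed. It was 163 with library size alone (157 higher and 6 lower). Leaving out 1 library gave 43 to 184, with 71, 44 and 43 without Veh 1, 2 and 3, 73 and 53 without OCY-EV+ANTA-NC 2 and 3, and 184 without OCY-EV+ANTA 1. In OCY-EV+ANTA against OCY-EV+ANTA-NC (1698 genes) this gave 1005 to 1635, the lowest without OCY-EV+ANTA 2, and in OCY-EV+ANTA against Veh (754 genes) 322 to 872, with 322 without Veh 2, 422 without Veh 3, 361 without OCY-EV+ANTA 2 and 459 without OCY-EV+ANTA 3. The split of 354 higher and 400 lower in this last comparison was 188 and 344 with limma on log2(FPKM + 1).

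Of the 10 genes, those called in OCY-EV+ANTA against OCY-EV+ANTA-NC (2) became 0 with DESeq2, which gave no adjusted p for Lipc and Apoa1, 4 with library size alone and 4 with no filter (Mttp and Nr1h3 added), and 1 with a mean of at least 1 CPM, where Lipc was not tested. Those called in OCY-EV+ANTA against Veh (1) became 2 with library size alone, 3 with no filter, 0 with a mean of at least 1 CPM, 2 with only the 2 groups compared and 2 (Mttp and Lpcat3, without Lipc) with the libraries numbered 1 left out, chosen after seeing the data. With DESeq2, which gave Lipc no adjusted p, the 1 gene called in OCY-EV+ANTA against Veh was Lpcat3. Leaving out 1 library gave 0 in OCY-EV+ANTA-NC against Veh, 1 to 3 in OCY-EV+ANTA against OCY-EV+ANTA-NC and 0 to 3 in OCY-EV+ANTA against Veh. Without Veh 1, the 1 gene called in that last comparison was again Lpcat3 and not Lipc. Lipc against OCY-EV+ANTA-NC was 0.40 on the log2(FPKM + 1) scale, which understates changes of low genes, and was called there.

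Signs changed when 1 library was left out for Apob (-0.06 to 0.11), Mttp (-0.02 to 0.14), Tm6sf2 (-0.12 to 0.29) and Apoa1 (-0.15 to 0.22) in OCY-EV+ANTA-NC against Veh, for Apob (-0.21 to 0.02) in OCY-EV+ANTA against OCY-EV+ANTA-NC, and for Apob (-0.16 to 0.05) and Scarb1 (-0.01 to 0.12) in OCY-EV+ANTA against Veh. With the libraries numbered 1 left out, Apob was -0.05 in OCY-EV+ANTA-NC against Veh and Tm6sf2 was -0.14 in OCY-EV+ANTA against OCY-EV+ANTA-NC.

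The groups share replicate numbers, but libraries with the same number did not all deviate together: the correlation of deviations was 0.029 to 0.245 over same-numbered pairs, and Veh 3 correlated best with OCY-EV+ANTA-NC 2 (0.078). The libraries numbered 1 did deviate together (0.159 to 0.245, against -0.152 to -0.026 with other numbers). Between the 2 vesicle groups, the pair numbered 2 (0.123) and the pair numbered 3 (0.089) were above the pairs that mixed these numbers (0.034 and 0.041). Veh 3 did not follow its number, so the numbers were not used to pair all libraries. With the replicate block, 522 genes were called in OCY-EV+ANTA-NC against Veh and 1446 in OCY-EV+ANTA against Veh. Of the 10 genes, 4 were called in OCY-EV+ANTA against OCY-EV+ANTA-NC and 3 in OCY-EV+ANTA against Veh. The 4 were Apoa1, Lipc, Mttp (adjusted p = 0.0186 by edgeR) and Nr1h3 (adjusted p = 0.0272 by edgeR), the last 2 not called in the reported fit. The replicate block with the GC and length trend removed gave 359 and 1445 genes and again 4 and 3 of the 10, with Apob at -0.01 in OCY-EV+ANTA-NC against Veh.

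Depth limited Lipc, Tm6sf2 and Apoe most, at no more than 26, 28 and 44 counts in any library.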
